A study of Mus musculus with 24 samples.

Results

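The 10 genes described here encode the enzymes that build and store new fatty acids (Acly, Acaca, Acacb, Fasn, Me1, Elovl6, Scd1, Scd2, Dgat2) and their transcription factor (Srebf1). They were taken by symbol from a count table of 25941 mouse genes, and all 10 were among the 14451 genes with enough counts to be tested. The table holds polyA RNA-seq of thoracic aorta from adult male wildtype C57BL/6 mice aged 10 to 12 weeks, collected at zeitgeber time 11, which counts hours from lights on. For 3 weeks the mice ate chow with celecoxib at 100 mg/kg/day, chow with rofecoxib at 50 mg/kg/day, or chow without drug (control), with 8 libraries in each group. Both drugs are inhibitors selective for cyclooxygenase 2, the enzyme encoded by Ptgs2; celecoxib is a pyrazole with a sulfonamide group and rofecoxib a furanone with a methylsulfone group. Libraries within a group are described as biological replicates, but no label ties any of them to an animal, so p-values measure the spread between these libraries.

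In fatty acid synthesis, ATP citrate lyase makes acetyl-CoA in the cytosol, acetyl-CoA carboxylase turns it into malonyl-CoA, and fatty acid synthase joins these units into palmitate with NADPH as the reductant. Elongases and stearoyl-CoA desaturases then lengthen and desaturate the chain before it enters triglyceride. The transcription factor SREBP-1, which insulin and the liver X receptors induce, switches on nearly every gene of this route, and in the body the route is most active in liver and in white and brown fat. An aorta carries a coat of perivascular fat, so bulk RNA from it can hold RNA of adipocytes beside that of the vessel wall.

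SREBP-1 acts on promoters together with the CCAAT-binding factor NF-Y and with Sp1, which binds GC boxes. The stretches of 250 bases upstream of the start of Fasn and of the 3 annotated starts of Srebf1 are shown because Fasn was the 1 gene of the 10 called lower with both drugs, and Srebf1 encodes the factor itself. The letters are from RefSeq on GRCm38.p6, which held 10 such windows for 7 of the 10 genes; Scd1, Scd2 and Dgat2 had no entry. All 4 windows are on the minus strand of chromosome 11: Fasn at chr11:120824548-120824797, and Srebf1 at chr11:60222582-60222831 (start 1), chr11:60220628-60220877 (start 2) and chr11:60210472-60210721 (start 3). Each reads 5′ to 3′ toward the start site. Capitals mark CCAAT and GGGCGG on either strand (ATTGG and CCGCCC are the same letters on the other strand), and adjoining or overlapping matches run together.
Fasn: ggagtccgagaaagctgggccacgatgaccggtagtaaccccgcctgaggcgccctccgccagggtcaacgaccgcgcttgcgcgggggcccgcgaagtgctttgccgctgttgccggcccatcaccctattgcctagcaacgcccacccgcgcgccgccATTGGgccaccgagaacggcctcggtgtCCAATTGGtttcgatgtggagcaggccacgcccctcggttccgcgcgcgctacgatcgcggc
Srebf1 start 1: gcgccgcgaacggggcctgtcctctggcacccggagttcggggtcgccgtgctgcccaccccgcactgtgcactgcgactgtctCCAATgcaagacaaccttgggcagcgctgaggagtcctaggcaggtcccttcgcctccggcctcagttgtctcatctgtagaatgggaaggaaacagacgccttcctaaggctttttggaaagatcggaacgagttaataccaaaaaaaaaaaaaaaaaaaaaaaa
Srebf1 start 2: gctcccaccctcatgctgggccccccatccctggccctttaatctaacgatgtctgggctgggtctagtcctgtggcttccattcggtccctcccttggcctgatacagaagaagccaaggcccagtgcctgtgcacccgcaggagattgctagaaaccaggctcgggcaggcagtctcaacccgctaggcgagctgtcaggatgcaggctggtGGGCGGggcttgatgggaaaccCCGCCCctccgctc
Srebf1 start 3: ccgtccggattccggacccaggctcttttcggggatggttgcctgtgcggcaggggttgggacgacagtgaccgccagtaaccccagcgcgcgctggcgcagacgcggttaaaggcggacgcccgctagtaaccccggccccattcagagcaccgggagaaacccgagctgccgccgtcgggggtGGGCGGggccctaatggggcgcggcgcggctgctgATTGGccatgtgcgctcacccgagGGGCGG

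In the Fasn window CCAAT was found 3 times, with its first base 90, 62 and 59 bases before the start, and the last 2 of these matches overlap. Start 3 of Srebf1 held 1 CCAAT, 30 bases before the start, and 2 GGGCGG, 65 and 6 bases before it. Of the 10 windows of these genes, 5 held CCAAT and 4 held GGGCGG, against 33.8% and 32.7% of all 32851 mouse windows in the same table. The E-box CACGTG and the sterol regulatory element core TCACNCCAC were in 0 of the 10 windows and in 6.02% and 1.05% of all windows. These matches describe the letters in a window and were not tested for binding.

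The deposited library totals ran from 21652432 to 21687906 counts. Totals this close were set by a step before deposit, so they do not give the sequencing depth of each library. The sample titles carry a running number that does not overlap between groups, from 4712 to 4721 for celecoxib, from 4722 to 4731 for rofecoxib and from 4783 to 4792 for controls. The labels do not say what it counts, and whatever goes with it cannot be told apart from the groups. Levels below are CPM, counts scaled to a common library size with TMM factors, which ran from 0.959 to 1.03. The defining genes of smooth muscle, the main cell type of the aortic wall, summed to between 44805 and 65604 CPM over 14 genes in every library. One library stood apart for most of these 10 genes. Control 6 was the highest of the 8 controls for 10 of 10 genes, and over the median of the other 7 controls it was 9.21 times as high for Elovl6, 7.5 times for Scd1, 6.19 times for Fasn, 1.70 times for Srebf1 and 1.34 times for Scd2. The same ratio had a median of 0.992 over 13010 genes above 1 CPM. Control 4 and control 5 were at the other end, the lowest control for 6 and 3 of the 10 genes. The fold changes of the 10 genes against the controls are therefore given with all 24 libraries and again without control 6. Other values are over all 24 libraries unless stated.

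**Figure D1:**
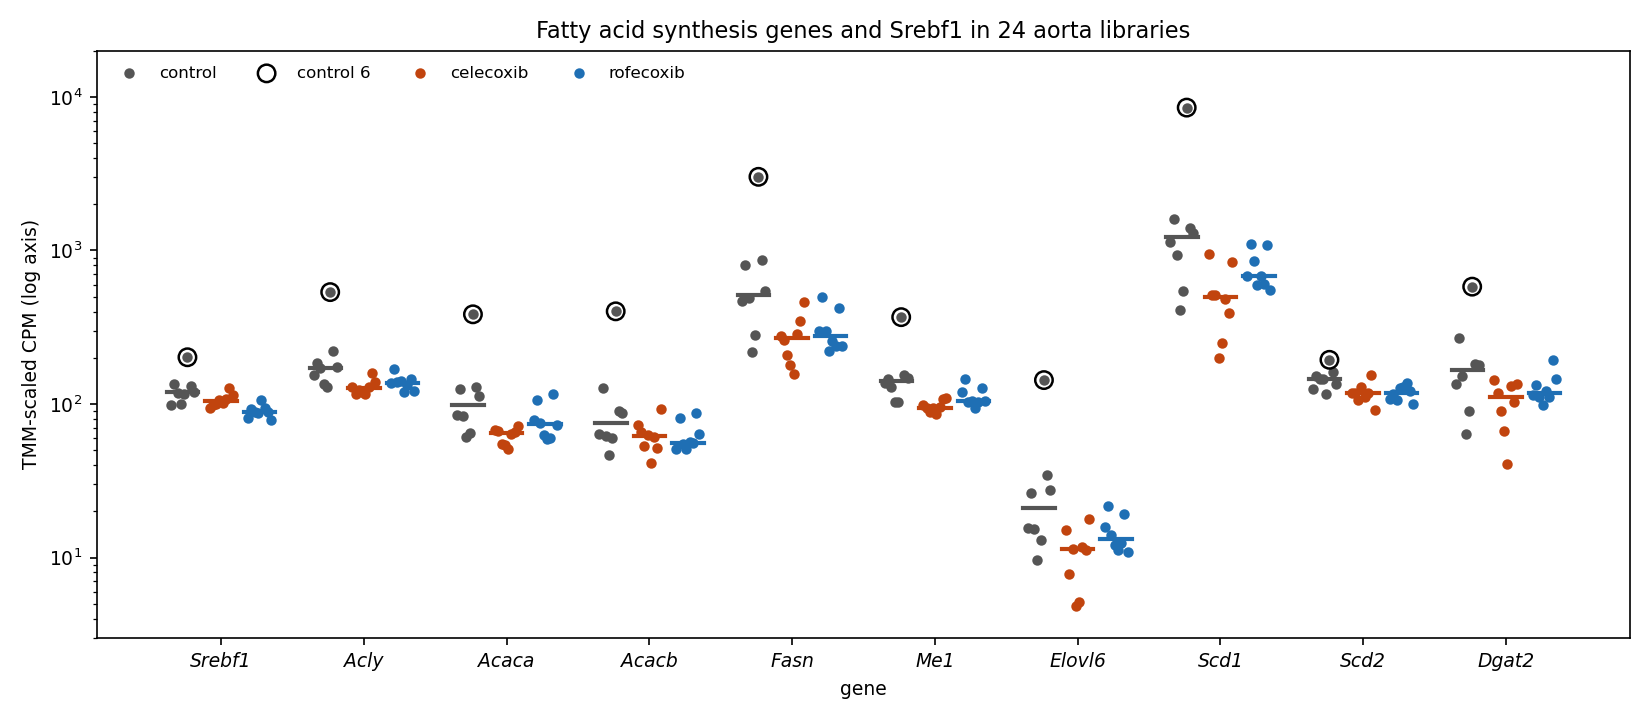
TMM-scaled CPM (log axis) of the 10 genes in each of the 24 libraries, with a bar at the median of each group of 8. The ringed point, control 6, lies above every other library for all 10 genes, and the bar of each drug group lies below the control bar for each gene.

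The median of each of the 10 genes was lower with celecoxib than in the controls, and so was it with rofecoxib, with and without control 6. The ratio of the celecoxib median to the control median ran from 0.407 (Scd1) to 0.873 (Srebf1), and without control 6 from 0.438 (Scd1) to 0.982 (Acacb). For rofecoxib it ran from 0.539 (Fasn) to 0.813 (Scd2), and without control 6 from 0.569 to 0.882. In none of the 10 genes were the libraries of a drug group all apart from the controls, with or without control 6. Over all genes tested, the groups did not overlap in 0.298% with celecoxib and 0.567% with rofecoxib, and in 0.498% and 0.734% without control 6, so 0 of 10 is near the background. Both drugs were set against the same 8 controls, so the 2 sets of values are not independent of each other. In bulk tissue, fewer cells of a type and less RNA per cell cannot be told apart.

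With edgeR's quasi-likelihood test and Benjamini-Hochberg adjustment over all genes tested, 3 of the 10 genes were called lower with celecoxib (Fasn, Scd1 and Me1), where 0.498% of all genes were called lower. The median log2 fold change was -0.95 over the 10 genes and -0.01 over all genes tested. Without control 6, 2 of 10 were called lower (Acly and Me1) against 0.897% of all genes, and the median was -0.51. With rofecoxib 2 of 10 were called lower (Fasn and Srebf1), where 2.87% of all genes were called lower, and the median was -0.71 against 0.00 over all genes. Without control 6, Srebf1 was the 1 gene still called lower, against 1.470% of all genes, and the median was -0.28. None of the 10 genes was called higher with either drug. At an unadjusted p under 0.05 all 10 were lower with celecoxib and 9 of 10 with rofecoxib, where 17.3% and 27.1% of all genes passed that limit in either direction. So 2 calls held with and without control 6: Me1 with celecoxib and Srebf1 with rofecoxib. Over the 24 fits that leave out 1 library each, the celecoxib count was 0 in 19, 1 without celecoxib 1 or celecoxib 7, 2 without control 6, 5 without control 4 and 7 without control 5. The rofecoxib count was 5 without control 4, 3 without control 1, celecoxib 7 or celecoxib 8, and 1 or 2 without any other library.

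**Figure D2:**
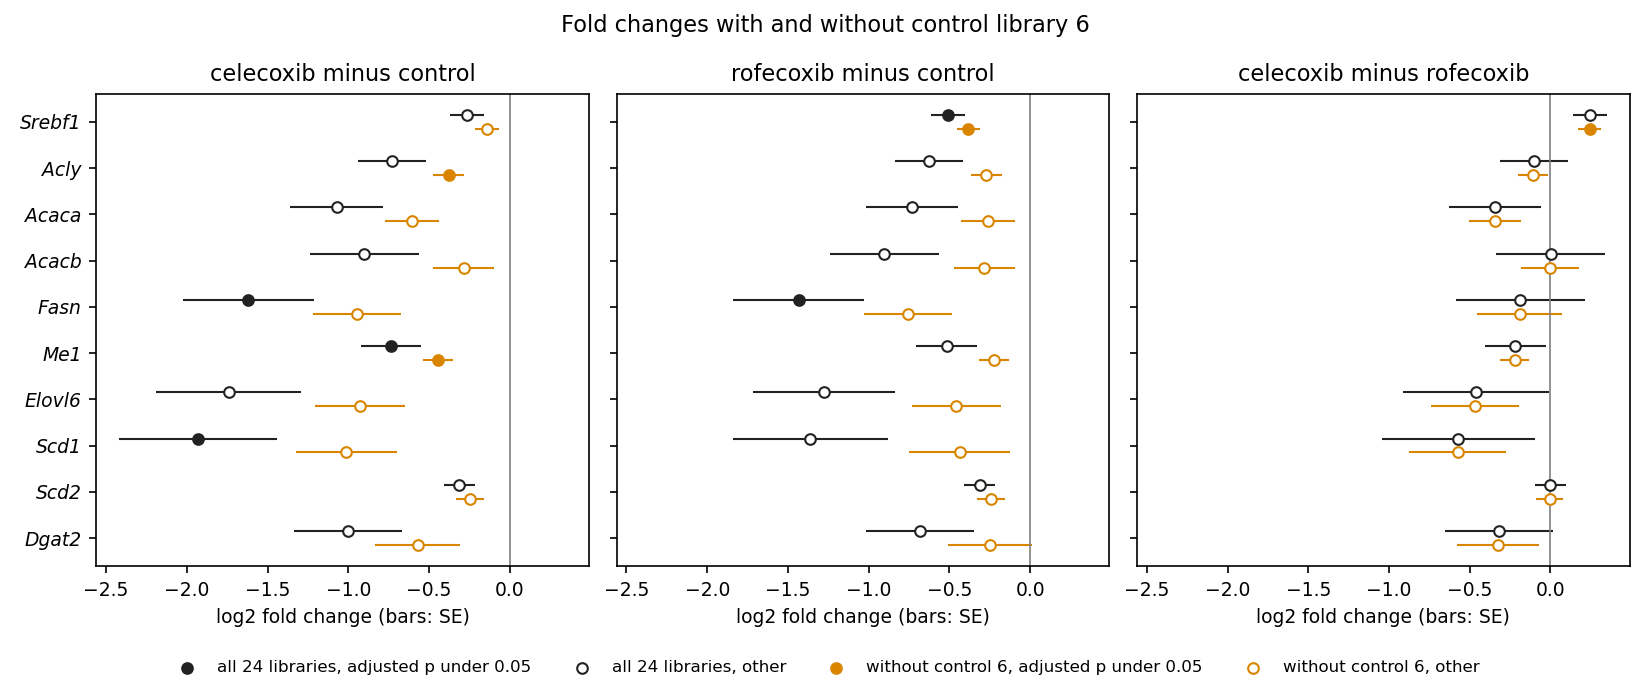
Log2 fold changes of the 10 genes (points) with their SE (bars) in the 3 comparisons, fitted to all 24 libraries (black) and without control 6 (orange); filled points have an adjusted p under 0.05. Without control 6 the Fasn change with celecoxib moved from -1.62 to -0.95, and that of Srebf1 with rofecoxib moved from -0.51 to -0.38 and stayed filled.

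Srebf1 encodes SREBP-1, the transcription factor of the route (ENSMUSG00000020538, mm9 chr11:60012389-60036285). Its control libraries ran from 98.8 CPM (control 1) through a median of 119.2 to 201.7 (control 6), with 135.7 as the next highest. The rofecoxib libraries ran from 78.4 through a median of 88.7 to 106.2, and the celecoxib libraries from 94.7 through 104.0 to 126.4. Thus 7 of 8 rofecoxib libraries were below every control, rofecoxib 5 being the exception, while 1 of 8 celecoxib libraries was. Srebf1 fell by 0.51 ± 0.11 (SE) on the log2 scale with rofecoxib, or 1.42-fold (adjusted p = 0.0147). Without control 6 it fell by 0.38 ± 0.07, or 1.30-fold (adjusted p = 0.00969). With celecoxib the log2 fold change was -0.26 ± 0.11 (adjusted p = 0.201), and -0.14 ± 0.07 without control 6 (adjusted p = 0.298).

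The Srebf1 call with rofecoxib held under each of the 37 alternative fits, with log2 fold changes from -0.55 to -0.26 and adjusted p from 0.000458 to 0.0400. It was smaller after correction for transcript GC content, at -0.37 (adjusted p = 0.0342) and at -0.26 when control 6 was also left out (adjusted p = 0.0199). Srebf1 transcripts are rich in GC, at 58.4%. The gene shares 513 bases at its end with its neighbour Rai1, and strand use in counting was not given in the sources used here. Reads in the overlap cannot be assigned to either gene. Rai1 fell by 0.26 ± 0.06 with rofecoxib (adjusted p = 0.0182), and its log2 fold change after the GC correction was -0.10 (adjusted p = 0.233). The part of this overlap in the Srebf1 value was not tested.

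Acly encodes ATP citrate lyase, the source of cytosolic acetyl-CoA. Its controls ran from 129.6 CPM through a median of 172.3 to 535.7, and the next highest control was at 222.1. With celecoxib the libraries ran from 116.1 through 126.2 to 158.1, and with rofecoxib from 119.4 through 137.7 to 169.2. Of the 8 celecoxib libraries, 6 were below every control. The log2 fold change with celecoxib was -0.73 ± 0.21 (adjusted p = 0.0816) over all libraries, and Acly fell by 0.38 ± 0.10 once control 6 was left out (adjusted p = 0.0413). With rofecoxib it was -0.63 ± 0.21 (adjusted p = 0.0688), and -0.27 ± 0.10 without control 6 (adjusted p = 0.103).

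Acaca and Acacb encode the 2 acetyl-CoA carboxylases, the first feeding malonyl-CoA to fatty acid synthesis and the second making it at mitochondria, where it restrains fatty acid oxidation. Acaca ran from 61.0 CPM through a median of 98.9 to 384.0 in controls, from 51.2 through 64.9 to 71.8 with celecoxib, and from 59.6 through 73.9 to 115.4 with rofecoxib. The celecoxib libraries of Acaca were the tightest of the 3 groups, and 6 of the 8 controls were above all of them. Its log2 fold change with celecoxib was -1.07 ± 0.29 (adjusted p = 0.0597), and -0.61 ± 0.17 without control 6 (adjusted p = 0.0571). Acacb ran from 46.4 CPM through 75.2 to 401.6 in controls, from 41.1 through 62.3 to 92.5 with celecoxib and from 50.7 through 55.9 to 87.8 with rofecoxib. The 3 groups of Acacb overlapped along most of their range once control 6 was set aside. The Acacb change was -0.90 ± 0.34 with either drug (adjusted p = 0.170 for celecoxib and 0.0955 for rofecoxib), and -0.29 and -0.28 without control 6 (adjusted p = 0.423 and 0.367).

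Fasn encodes fatty acid synthase (ENSMUSG00000025153, mm9 chr11:120667052-120685694), and its promoter window is printed above. Its controls ran from 219.5 CPM (control 4) through a median of 514.8 to 3019 (control 6), with 869.2 as the next highest. With celecoxib the libraries ran from 156.1 through 269.5 to 460.5, and with rofecoxib from 220.9 through 277.5 to 497.3. All 8 libraries of each drug were below the control median, yet control 4 was below every rofecoxib library and 5 of the celecoxib ones, and control 5, at 279.5, lay inside both drug groups. Fasn fell 3.07-fold with celecoxib (log2 fold change -1.62 ± 0.41, adjusted p = 0.0464) and 2.70-fold with rofecoxib (-1.43 ± 0.40, adjusted p = 0.0445). Without control 6 the changes were -0.95 ± 0.27 (adjusted p = 0.0727) and -0.76 ± 0.27 (adjusted p = 0.111), which ended both calls.

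Both Fasn calls were close to the threshold and depended on single libraries and on the processing. After the GC correction the celecoxib call held (-1.64, adjusted p = 0.0366) and the rofecoxib call was lost (-1.27, adjusted p = 0.0960). Without a low-count filter both were lost (adjusted p = 0.0966 and 0.0806), and with DESeq2 both held (adjusted p = 0.00697 and 0.0107). With limma voom the celecoxib call held (adjusted p = 0.0459) and the rofecoxib call was lost (adjusted p = 0.117). In the 24 fits that leave out 1 library each, the celecoxib call held in 2 of 24, without control 4 or control 5, with adjusted p from 0.0282 to 0.110. The rofecoxib call held in 11 of 24, with adjusted p from 0.0230 to 0.111. It held without celecoxib 1, 2, 4, 5, 7 or 8, rofecoxib 2, or control 1, 2, 3 or 4, and was lost without any of the other 13 libraries. The log2 fold change stayed below 0 in each of the 24 fits, and control 6 was the library whose absence moved it farthest toward 0 with either drug.

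Me1 encodes cytosolic malic enzyme, which supplies NADPH. It had the narrowest celecoxib group of the 10 genes, from 85.9 CPM through a median of 94.9 to 110.0, while controls ran from 103.0 through 141.3 to 368.0 and the next highest control was at 154.0. Of the 8 celecoxib libraries, 6 were below every control, and 6 of the 8 controls were above every celecoxib library. Rofecoxib libraries ran from 94.7 through 104.3 to 144.5. Me1 fell by 0.73 ± 0.19 with celecoxib, or 1.66-fold (adjusted p = 0.0479), and by 0.44 ± 0.09 without control 6, or 1.36-fold (adjusted p = 0.0195). Among the 24 fits that leave out 1 library, the call held in 3, without control 4, 5 or 6, and adjusted p reached 0.110. The GC correction gave -0.72 (adjusted p = 0.0548), and -0.42 without control 6 (adjusted p = 0.0234). With rofecoxib the change was -0.52 ± 0.19 (adjusted p = 0.0846), and -0.22 ± 0.09 without control 6 (adjusted p = 0.158).

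Elovl6 encodes the elongase that takes palmitate to stearate, and it had the lowest level of the 10 genes per kilobase of transcript. Its controls ran from 9.65 CPM through a median of 20.9 to 143.2, its celecoxib libraries from 4.86 through 11.3 to 17.8 and its rofecoxib libraries from 10.8 through 13.2 to 21.8. In 3 celecoxib libraries Elovl6 was below every control, and in no rofecoxib library was it so. Its log2 fold change was -1.74 ± 0.45 with celecoxib (adjusted p = 0.0526) and -1.28 ± 0.44 with rofecoxib (adjusted p = 0.0747). Without control 6 these were -0.93 ± 0.28 (adjusted p = 0.0822) and -0.46 ± 0.28 (adjusted p = 0.316).

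Scd1 and Scd2 encode stearoyl-CoA desaturases, which put the first double bond into saturated fatty acids; as close paralogs next to each other on chromosome 19 they may share reads. Scd1 was the most abundant of the 10 genes per kilobase, and its controls ran from 407.8 CPM through a median of 1225 to 8525, with 1595 as the next highest. Celecoxib libraries ran from 200.3 through 498.9 to 951.4, and rofecoxib libraries from 555.4 through 683.5 to 1106. Thus celecoxib reached levels under every control in 3 libraries, while no rofecoxib library did. Scd1 fell 3.82-fold with celecoxib (log2 fold change -1.93 ± 0.49, adjusted p = 0.0477). Without control 6 the change was -1.01 ± 0.31 (adjusted p = 0.0876), and the call held in 3 of the 24 fits that leave out 1 library, without celecoxib 1, control 4 or control 5. With rofecoxib it was -1.36 ± 0.48 (adjusted p = 0.0800), and -0.44 ± 0.31 without control 6 (adjusted p = 0.403).

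Scd2 controls ran from 116.4 CPM through 145.7 to 194.1, the celecoxib libraries from 92.1 through 117.6 to 153.7 and the rofecoxib libraries from 100.3 through 118.5 to 137.3. Medians were alike in both drug groups, and 4 rofecoxib and 3 celecoxib libraries were below every control. Its log2 fold change was -0.31 ± 0.10 with each drug (adjusted p = 0.0964 with celecoxib and 0.0554 with rofecoxib), and -0.25 and -0.24 without control 6 (adjusted p = 0.134 and 0.111). Control 6 moved it by less than any other gene of the 10.

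Dgat2 encodes the acyltransferase that completes triglyceride. Controls ran from 63.9 CPM through a median of 165.9 to 581.4, celecoxib libraries from 40.6 through 110.6 to 143.2 and rofecoxib libraries from 99.0 through 118.0 to 194.4. The groups overlapped, with control 4 below 7 of the 8 celecoxib libraries. Its changes were -1.0 ± 0.33 with celecoxib (adjusted p = 0.125) and -0.68 ± 0.33 with rofecoxib (adjusted p = 0.188), and without control 6 they were -0.57 ± 0.26 and -0.25 ± 0.26 (adjusted p = 0.249 and 0.597).

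Per kilobase of transcript, the control medians without control 6 ordered the genes from Scd1 at 236.0 CPM per kilobase through Dgat2 at 67.3, Fasn at 48.5, Me1 at 41.7, Acly at 38.6, Srebf1 at 27.5, Scd2 at 26.6, Acaca at 8.85 and Acacb at 7.21 to Elovl6 at 2.61. Within the control group without control 6, the highest library was 4.21 times the lowest for Dgat2, 3.96 times for Fasn and 3.91 times for Scd1, but 1.37 times for Srebf1 and 1.39 times for Scd2. In the drug groups the widest spread was that of Scd1 with celecoxib, at 4.75 times.

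Between the 2 drug groups, which were fed different doses, 0 of the 10 genes differed at an adjusted p under 0.05, while 22.7% of all genes tested did. At an unadjusted p under 0.05 it was 1 of 10 (Srebf1), against 36% of all genes tested. DESeq2 called 0 of 10 and limma voom 1 of 10, where they called 3619 and 3537 genes over all. The median log2 fold change of celecoxib over rofecoxib was -0.20, and 8 of 10 genes were lower with celecoxib. For Fasn the difference was -0.19, with an interval of 2 SE on each side from -0.98 to 0.61. For Scd1 it was -0.57 (-1.52 to 0.38), for Elovl6 -0.46 (-1.37 to 0.44), for Acaca -0.34 (-0.91 to 0.23), for Dgat2 -0.32 (-0.99 to 0.35) and for Me1 -0.22 (-0.59 to 0.16). These intervals hold differences of 1.5-fold or more in at least 1 direction, so likeness of the drugs is not shown. Scd2 was the most closely bounded, at 0.00 (-0.19 to 0.19), and Acly and Acacb were at -0.10 (-0.52 to 0.32) and 0.00 (-0.67 to 0.68).

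Srebf1 was the gene of the 10 that had the most positive difference, 0.25 ± 0.11 higher with celecoxib than with rofecoxib, with an interval from 0.03 to 0.46 (adjusted p = 0.0962). Without control 6 the spread shared by all groups was smaller, and the difference of 0.24 ± 0.07 was called (adjusted p = 0.0161), where 11.8% of all genes were called higher. After the GC correction it was 0.07 (adjusted p = 0.659), and 0.07 also without control 6 (adjusted p = 0.441). Rai1 was higher with celecoxib by 0.32 (adjusted p = 0.00140), and by 0.10 after the GC correction (adjusted p = 0.156).

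Most adipocyte markers were high in the library in which these genes were high. The white and general adipocyte list (21 of 21 genes tested, none at 0 in any library) summed to 13044 CPM in control 6, to between 2096 and 6871 in the other controls, to between 2635 and 5281 with celecoxib and to between 2726 and 6955 with rofecoxib. The brown adipocyte list (16 of 17 tested, Zic1 not) summed to 2123 CPM in control 6, to between 438.8 and 874.4 in the other controls, to between 337.3 and 897.2 with celecoxib and to between 511.4 and 815.4 with rofecoxib. Control 4, the lowest control for 6 of the 10 genes, was also the lowest control for both lists. Celecoxib 5, the lowest celecoxib library for 6 of the 10, was also the lowest celecoxib library for both. Not every library ran this way. By mean log2 CPM of the white and general list, rofecoxib 8 was at 6.82, above its group's median of 6.07. Yet it was the lowest rofecoxib library for 4 of the 10 genes. Celecoxib 2 was the highest of its group on that list, at 6.71, and the highest for 0 of the 10 genes. On the brown list it was at 3.86, below its group's median of 4.13. Control 6 was above every other control for 20 of the 21 white and general markers and for 13 of the 16 brown ones. Of the 3 most abundant white and general markers, Fabp4, a fatty acid carrier, was at 2439 CPM in control 6 and between 256.4 and 970.7 in the other controls, and Car3, a carbonic anhydrase, at 2555 and between 231.6 and 1194. Plin4, a lipid droplet protein and the most abundant of the list, was at 806.5 CPM in control 6, inside the range of the other controls (709.7 to 846.4). Of the 3 most abundant brown markers, Ucp1, the uncoupling protein of brown fat, was at 843.1 against 45.8 to 254.4, and Cidea, a lipid droplet protein, at 399.4 against 46.8 to 142.7. Prdm16, a transcription factor of brown fat, was at 91.8 CPM in control 6, below every other control (94.6 to 137.8). The Schwann cell list was also highest in control 6 among controls, at 747.6 CPM against 294.1 to 415.3, and the smooth muscle list lowest, at 44805 against 47090 to 59537. Also lowest in control 6 were the summed fibroblast list, at 13740 against 14105 to 19542, and the summed endothelial list, at 802.4 against 821.4 to 1067. By mean log2 CPM, control 3 was the lowest control for the endothelial list.

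**Figure D3:**
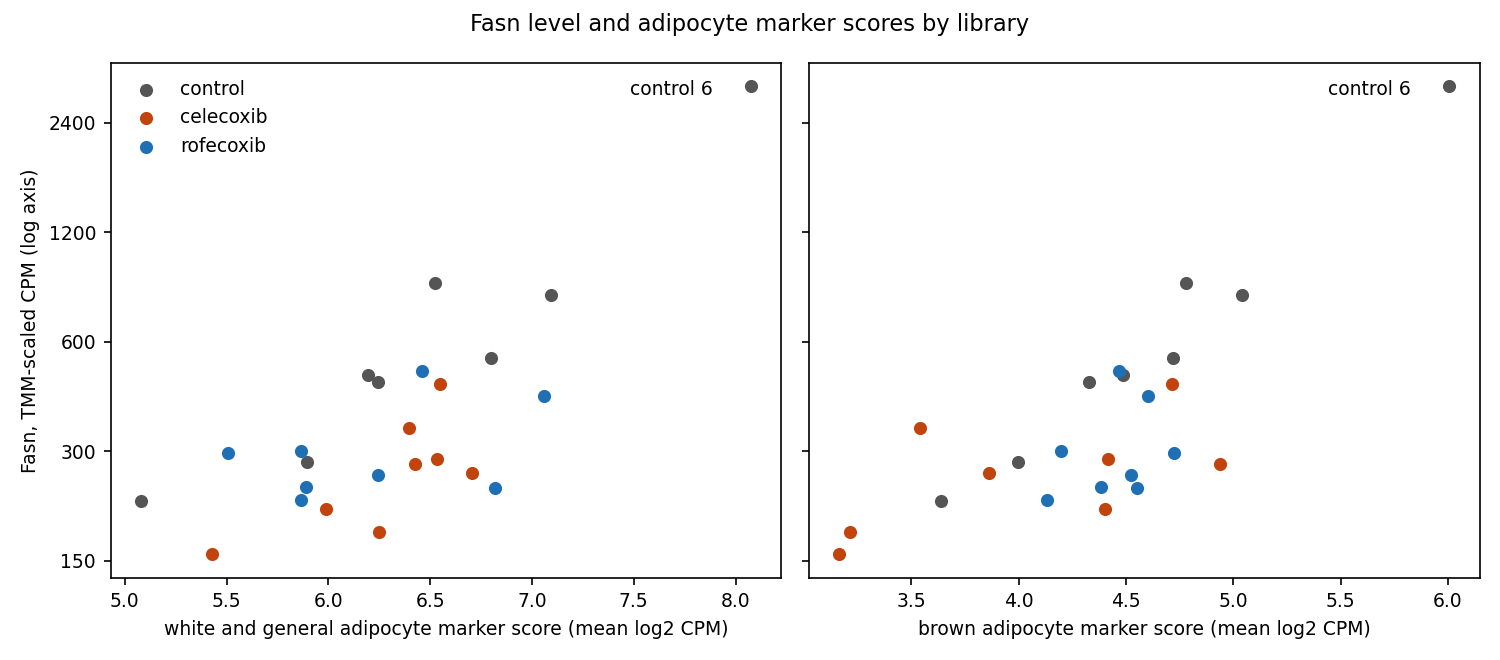
Fasn level in TMM-scaled CPM (log axis) against the mean log2 CPM of the white and general adipocyte markers (left) and of the brown adipocyte markers (right), 1 point per library. Control 6 is the highest point on each axis, and celecoxib 5, at 156.1 CPM of Fasn, is the lowest celecoxib point on each axis.

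As lists, adipocyte markers were not called in either drug comparison. Of the 21 white and general markers, 0 were called with either drug by edgeR (1 with each at an unadjusted p under 0.05). Over all genes tested, 1.41% were called with celecoxib and 5.3% with rofecoxib, and 17.3% and 27.1% passed the unadjusted limit. The median log2 fold change of these 21 markers was -0.42 with celecoxib and -0.43 with rofecoxib, or -0.07 and -0.06 without control 6. Of the 16 brown markers, 0 were called (4 with celecoxib and 2 with rofecoxib at an unadjusted p under 0.05), with medians of -0.62 and -0.33, or -0.19 and -0.02 without control 6. Smooth muscle markers were called higher for 5 of 14 genes with celecoxib and 4 of 14 with rofecoxib (Acta2, the smooth muscle actin, at 0.30 and 0.27). Over all genes, 0.913% and 2.43% were called higher. Without control 6 the smooth muscle calls were 3 and 2 of 14, against 0.925% and 0.842% of all genes. Fibroblast markers were called lower for 4 of 12 and macrophage markers for 2 of 12 with rofecoxib, and for 0 of 12 each with celecoxib. Of all genes, 2.87% were called lower with rofecoxib and 0.498% with celecoxib. Endothelial and Schwann cell markers had 0 calls of 12 each with either drug, and of 10 skeletal muscle markers 4 had enough counts to be tested, 1 being called higher with celecoxib.

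Refitting with a marker score as a covariate gave different counts for the 2 adipocyte lists. With the white and general score, 6 of the 10 genes were called lower with celecoxib, where 0.893% of all genes were (Fasn, Scd1, Me1, Acaca, Elovl6 and Dgat2), Fasn at -1.02 (adjusted p = 0.0216), and without control 6 it was 7, Acly being added, against 1.37% of all genes. With the brown score 0 of 10 were called, against 0.083% of all genes, Fasn being at -0.51 (adjusted p = 0.488) and Me1 at -0.35 (adjusted p = 0.340), and without control 6 again 0, against 0.179% of all genes, with Me1 at -0.36 (adjusted p = 0.0780). With rofecoxib, where 6.2% of all genes were called in either direction under the white score and 4.25% under the brown, the 1 gene of the 10 called under either score was Srebf1, at -0.42 (adjusted p = 0.0128) with the white score and -0.45 (adjusted p = 0.0166) with the brown. Fasn with rofecoxib was then at -0.69 (adjusted p = 0.0623) and -0.81 (adjusted p = 0.0585). These fits describe how the values move together. The part of other cell types in the results was not otherwise tested.

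The rest of the route was described with 75 further genes in 5 lists, of which 72 were tested. With celecoxib 1 of the 72 was called, against 1.41% of all genes (0.913% higher): Ptpla (Hacd1), a dehydratase of chain elongation, was higher by 0.26 (adjusted p = 0.0390). With rofecoxib 6 of the 72 were called, 4 higher and 2 lower, against 5.3% of all genes (2.43% higher and 2.87% lower). Higher were Sp1, the GC box factor (0.25, adjusted p = 0.0212), Insr, the insulin receptor (0.28, adjusted p = 0.0400), Insig2, which retains SREBP in the endoplasmic reticulum (0.15, adjusted p = 0.0472), and Ptpla (0.22, adjusted p = 0.0453). Lower were G6pdx, the first NADPH-yielding step of the pentose phosphate route (-0.30, adjusted p = 0.0259), and Pnpla3, a lipid droplet protein (-1.45, adjusted p = 0.0343). Without control 6, Sp1 (0.24, adjusted p = 0.0396) and G6pdx (-0.20, adjusted p = 0.0120) were the 2 of these 6 still called, where 2.31% of all genes were called, 0.842% higher. After the GC correction, where 194 of the 14451 genes tested were called, Sp1 was the 1 of these 6 called (0.16, adjusted p = 0.0401). G6pdx was then at -0.26 (adjusted p = 0.0611) and Pnpla3 at -1.28 (adjusted p = 0.0769). With the correction and without control 6, where 170 of 14488 genes were called, it was G6pdx (-0.17, adjusted p = 0.0394). Sp1 was then at 0.16 (adjusted p = 0.0633).

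By list, the 5 NADPH genes were all below 0 with both drugs, with medians of -0.28 for celecoxib and -0.32 for rofecoxib, and -0.18 with each drug without control 6. The 19 tested genes of synthesis, elongation and desaturation had medians of -0.13 and -0.08, and -0.04 and -0.09 without control 6. The 17 genes of triglyceride assembly were at -0.16 and -0.22, and -0.10 and -0.03 without control 6. The 25 regulators were at -0.03 and -0.05, and -0.02 and -0.01 without control 6, and the 6 liver X receptor targets outside lipogenesis at 0.01 and -0.12, and 0.03 and 0.02 without control 6. Without control 6, 3 of the 72 were called with celecoxib, where 1.82% of all genes were called, 0.897% lower and 0.925% higher. They were Acss2, which makes acetyl-CoA from acetate (-0.49, adjusted p = 0.0422), G6pdx (-0.16, adjusted p = 0.0404) and Fads2, a fatty acid desaturase (-0.31, adjusted p = 0.0404), all lower; Acss2 and Fads2 are named here after their values were seen.

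**Figure D4:**
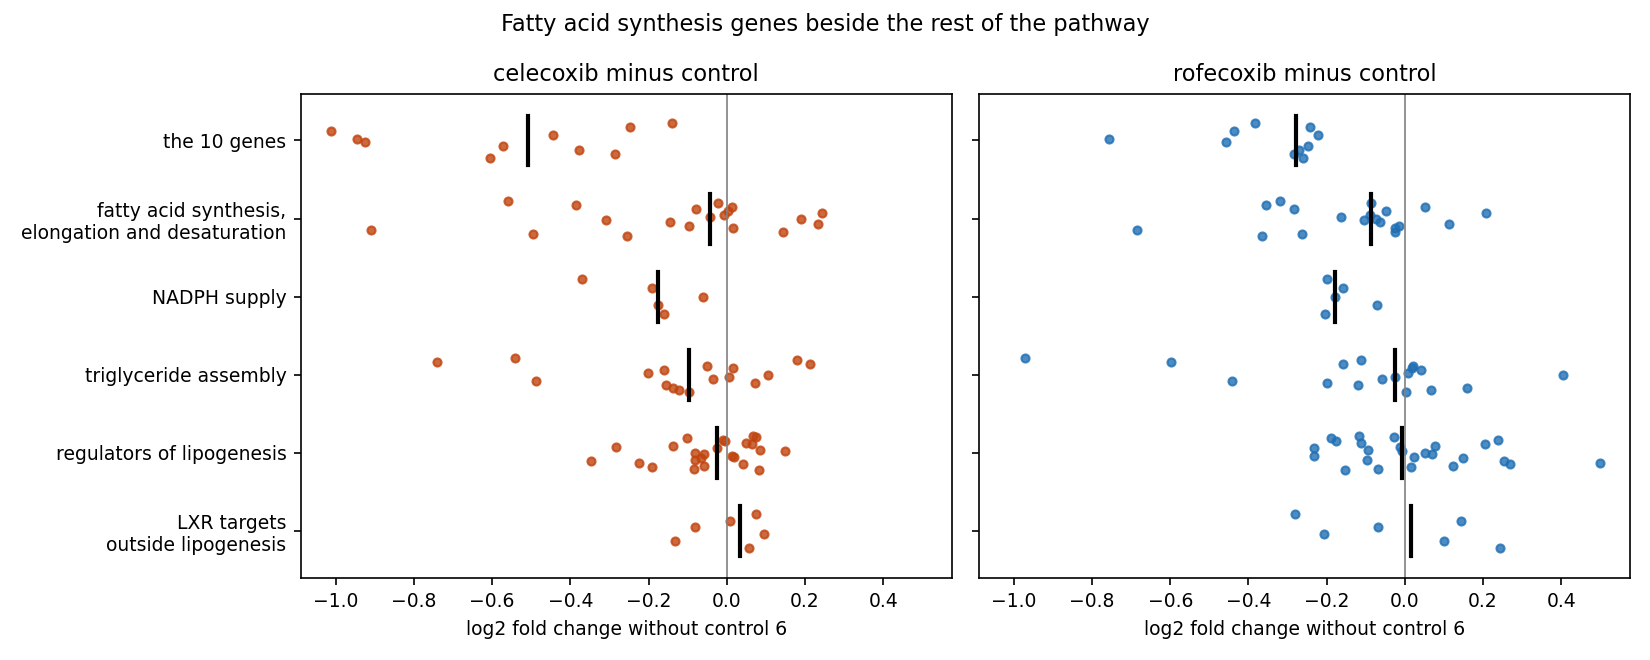
Log2 fold changes without control 6 (horizontal axis), 1 point per gene, for the 10 genes and the 5 lists of other pathway genes, with a bar at each list's median. The bar of the 10 genes lies at -0.51 with celecoxib and -0.28 with rofecoxib, and the bars of the 5 other lists lie between -0.18 and 0.03.

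Between the drug groups 18 of the 72 pathway genes were called, against 22.7% of all genes, 11 higher and 7 lower with celecoxib. Among regulators, Akt1, Rxra, Scap, Nfyc, Usf2 and Nr1h2 were higher, by 0.16 to 0.24, and Sp1, Insig2, Insr, Prkaa1 and Irs1 were lower, Irs1 (insulin receptor substrate 1) by 0.72 (adjusted p = 0.0412). Outside the regulators, Fads3, Elovl1, Lpin3, Agpat1 and Pltp were higher and Acsl3 and Acsl4 lower. Without control 6, 11 of the 72 were called higher and 8 lower, against 24.8% of all genes in either direction. After the GC correction 3 were called higher (Fads3, Nfyc and Ptplad1, which was picked out after its value was seen) and 1 lower (Sp1). In that fit 1411 of the 14451 genes tested were called in either direction. Scap, which escorts SREBP to its proteases, went from 0.18 to -0.01 and Nr1h2, a liver X receptor, from 0.18 to -0.04.

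To see which genes varied with Fasn inside groups, each gene's log2 CPM was taken relative to its group median, and Spearman's rho was computed over the 24 libraries. All genes of a library share its cell mixture, which differed between libraries. Among the 10 genes rho with Fasn was 0.91 for Acaca, 0.87 for Elovl6, 0.86 for Acly, 0.86 for Me1, 0.80 for Scd1, 0.78 for Dgat2 and 0.72 for Acacb, but 0.60 for Srebf1 and 0.22 for Scd2. Without control 6 it ran from 0.92 for Acaca through 0.65 for Acacb and 0.53 for Srebf1 to 0.11 for Scd2. Outside the 10, the highest were Acss2 at 0.95, Tkt and Taldo1 of the pentose phosphate route at 0.91 and 0.86, Pnpla3 at 0.89, and Gys1, a glycogen synthase, at 0.87. The same 5 led without control 6. Adipocyte markers were lower in that order, such as Adipoq (adiponectin) at 0.64 and Ucp1 at 0.55.

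The genes nearest Srebf1 were others. Slc25a22, a mitochondrial glutamate carrier, and Tnfrsf1a, a receptor for tumour necrosis factor, were both at 0.81, then the kinase gene Pim1 at 0.79, B4galnt1 at 0.79 and Zfp703 at 0.79. Of these 5, 3 remained among the first 5 without control 6, joined by Ttyh3 and Kdm6b. Within the 10 genes Srebf1 was nearest Acly at 0.61, Fasn at 0.60 and Scd2 at 0.57, and farthest from Scd1 at 0.35. Without control 6 these were lower, at 0.54, 0.53, 0.51 and 0.22. These values are descriptions over shared libraries.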

How the data were processed

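The authors deposited whole-number counts per gene for 24 libraries, with mm9 coordinates. The submitters' processing notes name CASAVA 1.8.2, STAR 2.5.1b and the mm9 build. The counting tool, annotation and strand use were not given in the sources used here, nor was the step that made library totals nearly equal. Library construction took several days, per the labels' protocols, and which library was made on which day was not given in the sources used here and could not be set against the groups. The running numbers in the sample titles separate the groups, with controls apart from both drug groups, and no fit can hold them as a term.

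Counts were tested with edgeR 4.0.16 in R 4.3.3 (filterByExpr, TMM, robust quasi-likelihood fit to all 24 libraries, 1 mean per group, 21 residual degrees of freedom). Benjamini-Hochberg adjustment ran over 14451 genes, and called means an adjusted p under 0.05. Each SE was taken from the log2 fold change and its F statistic. Scores and likeness used log2 CPM with a prior count of 2. The GC correction fitted a lowess curve (span 0.3) to each library over 14075 genes with transcript GC content from GENCODE M21. Alternatives used DESeq2 1.42.0 and limma 3.58.1 (voom). The scripts were tested on simulated data.

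The 10 genes, the pathway and marker lists (white and general adipocyte, brown adipocyte, smooth muscle, endothelium, fibroblast, macrophage, Schwann cell, skeletal muscle) and the tests were chosen with earlier results of these data known. Of pathway genes, the rule named those called in any comparison; of the genes most like Fasn and Srebf1, the first 5; of marker lists, the 3 most abundant and any beside a result.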

Additional observations from a re-analysis of the deposited data

Results flagged for a closer look

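In each group of 8 libraries, the gap between the highest or lowest library and its nearest neighbour was divided by the group's range, on log2 CPM, for the 10 genes and 3 groups (30 pairs). The gap exceeded the 95% critical value of Dixon's test, 0.526, in 7 pairs, and in all 7 the library was control 6. Chance alone passes this limit in about 1 of 20 groups, and the 7 genes share the library, so they are not separate events. The ratio was 0.684 for Me1 (368.0 CPM against 154.0 in the next control), 0.621 for Acly (535.7 against 222.1), 0.591 for Acaca (384.0 against 129.4), 0.555 for Srebf1 (201.7 against 135.7), 0.551 for Scd1 (8525 against 1595), 0.537 for Acacb (401.6 against 126.2) and 0.531 for Elovl6 (143.2 against 34.3). No celecoxib or rofecoxib library passed the limit for any of the 10 genes. The summed adipocyte markers of the same library are given beside the results, and their part in these gaps was not tested.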

How the results depend on the processing

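Among the 30 values of the 10 genes in 3 comparisons, each under 37 alternatives (1110 in all), 906 kept their direction and side of the threshold, 108 lost a call, 53 gained one and 43 changed sign. All sign changes lay in the comparison between the drugs.

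Of the 10 genes, the numbers called with celecoxib, with rofecoxib and between the drugs (3, 2 and 0) were 6, 7 and 0 with DESeq2, 6, 1 and 1 with limma voom, 0, 1 and 0 without a low-count filter, and 0, 1 and 1 when only the 2 groups compared were fitted. They were 3, 1 and 0 with the GC correction and 2, 1 and 0 with it and without control 6. With the white and general adipocyte score they were 6, 1 and 3, and 7, 1 and 5 without control 6; with the brown score they were 0, 1 and 1, with or without control 6. The fits that also leave out control 6 were added after the data had been seen. Leaving out 1 library at a time gave 0 to 7, 1 to 5 and 0 to 1. The 7 came without control 5 and the 5 without control 4, and without control 4 celecoxib gave 5.

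Genes called over all (204, 766 and 3275) were 472, 1584 and 3619 with DESeq2, 618, 634 and 3537 with voom, 86, 294 and 2420 without a filter, 88, 461 and 3071 with 2 groups, 296, 194 and 1411 with the GC correction and 349, 170 and 1650 with it and without control 6. With the brown score they were 22, 614 and 3096, and 46, 341 and 2353 without control 6, and with the white score they were 280, 896 and 3589, and 405, 540 and 3935 without control 6. Leaving out 1 library gave 42 to 312, 170 to 1121 and 2147 to 3739, so these counts rest on single libraries. The celecoxib count moved by over 1.5 times without celecoxib 2 (312), 3 (93), 4 (57), 5 (42), 7 (135) or 8 (73), rofecoxib 3 (135), or control 1 (96), 2 (64), 3 (68), 4 (116), 7 (109) or 8 (113). The rofecoxib count did so without rofecoxib 1 (479), 2 (401), 7 (199) or 8 (179), or control 5 (178), 6 (335), 7 (170) or 8 (435), and the count between the drugs without rofecoxib 8 (2147).

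Replicate numbers recur in each group, and what a shared number means was not given in the sources used here. Same-numbered libraries had deviations that correlated between -0.39 and 0.32 over 24 pairs, 10 of them over 0.1. Of 24 libraries, 5 correlated best with their own number. Whether same-numbered libraries belong together was not tested further. With the replicate number as a block, 1, 2 and 0 of the 10 genes and 187, 653 and 3193 genes were called, and with the replicate block and GC correction 2, 2 and 0 of the 10 and 344, 154 and 1501 genes.

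Between the drugs, values near 0 changed sign. With the brown score Fasn was at 0.30 (0.11 without control 6), Dgat2 at 0.0787 (0.0124), Acly at 0.12 and Acaca at 0.00572. Scd2 was at 0.00286 without a filter, 0.00022 with DESeq2, 0.0197 with the GC correction (0.0156 with the replicate block too, 0.0158 without control 6), 0.0222 with the brown score, and -0.0685 to 0.0395 with 1 library left out. Acacb was at -0.0118 with library totals, -0.0142 with voom, -0.0013 with the replicate block, -0.14 with the GC correction (-0.14 with the block, -0.15 without control 6), -0.00092 with 2 groups, -0.0727 with the white score (-0.0466 without control 6), and -0.10 to 0.0837 with 1 library left out. With the GC correction alone, with the block and without control 6, Scap was at -0.0134, -0.0131 and -0.0181 and Nr1h2 at -0.0352, -0.0352 and -0.0401. The cause was not tested. Of the 5 genes most like Srebf1, 3 were shared without control 6.

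Counts limit Elovl6 most, at 101 to 3148 counts, and the others had at least 858 counts in every library.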

Other observations

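Of the marker lists, the white and general adipocyte, brown adipocyte, Schwann cell and smooth muscle lists were compared with Srebf1 inside groups. Among these markers the 4 most negative values belonged to smooth muscle genes. Spearman's rho with Srebf1 was -0.76 for Myocd, a coactivator of smooth muscle genes, and it ranked 14399 of 14450 genes. It was -0.74 without control 6. Myh11, the smooth muscle myosin heavy chain, was at -0.63, Synpo2 at -0.58 and Mylk at -0.45, whereas Acta2 was at -0.08 and Smtn at 0.29. Without control 6 Myh11 was at -0.55, Synpo2 at -0.52, Mylk at -0.36 and Smtn at 0.47. Over all 24 libraries Lmod1, Des and Tpm2 were also above 0, at 0.28, 0.17 and 0.07. Fasn was at -0.20 with Myocd and at -0.50 with Tagln. These genes were picked after their values were seen, and the values are descriptions over 24 shared libraries.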
